A study of Homo sapiens with 48 samples.

Results

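RNA levels of 10 cancer stem cell markers and pluripotency factors were examined in PSN1, a human pancreatic ductal adenocarcinoma cell line, before and after acquired resistance to the PARP inhibitor Talazoparib. The members were the surface markers PROM1, CD44, EPCAM and LGR5, the kinase DCLK1, the intermediate filament gene NES, and the nuclear factors SOX2, BMI1, KLF4 and POU5F1. They were found by symbol as 10 of the 20241 genes listed. RNAseq was made from 9 libraries in 3 groups of 3 replicates, and the groups carried no engineered allele. Parental cells grew without drug. TalaR-M cells were derived from them by selection in Talazoparib and were labelled as kept in 50 nM Talazoparib for 4 months. TalaR-DF cells were TalaR cells that were moved to drug-free medium, where they grew for weeks. All groups are the same cell line harvested in triplicate, and the labels do not say that the replicates were separate cultures, so p-values measure the spread between these samples, which may be technical. The comparisons ask how these markers differ in resistant cells and what is left of the difference once drug is withdrawn.

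Cancer stem cell markers are genes used to enrich tumour cells with high colony or tumour forming capacity, and in pancreatic cancer the products of PROM1, CD44 and EPCAM are stained together with other antigens for this purpose. SOX2, KLF4 and POU5F1 are transcription factors that, together with MYC, reprogram somatic cells to pluripotency. BMI1 is a subunit of Polycomb repressive complex 1 that keeps CDKN2A repressed and sustains self-renewal in several tissues. In epithelial tumours a mesenchymal shift is often discussed together with stemness, and EPCAM as an epithelial adhesion molecule tends to be lost in that shift while CD44 and NES are linked to mesenchymal or progenitor states.

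The values are log2 CPM, the log2 of read counts scaled to library size, in which a value of 0 stands for at most 1 CPM. The reads on genes above that level summed to between 8387755 and 14973847 per library, and 0 stood for at most 6 to 14 reads depending on the library. Replicate 2 of TalaR-M had the lowest depth and stood apart from the other libraries: 5431 of 12471 genes tested lay more than 2-fold from the mean of the other replicates of its group, against 1685 and 1431 in the other TalaR-M libraries, where replicate 2 is part of that mean, 4 to 6 in parental and 16 to 45 in TalaR-DF libraries. Its values deviated with transcript length, from a median of 1.31 against replicates 1 and 3 in the length decile with the shortest transcripts to -1.36 in that with the longest, in log2 units. The members' differences are therefore given with and without this library, and those of other genes where leaving it out ended a call or moved a value by over 1.5 times. Of 8 markers of pancreatic ductal epithelium, 6 were above 0 in all 9 libraries, and the adherens junction gene CDH1 was at 0 in all 9.

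A gene was counted as passing at a Benjamini-Hochberg adjusted p under 0.05 in a limma fit of all 9 libraries, and as called when it also differed by at least 2-fold. Of the 10 members, 7 were tested and 5 were above 0 in every library. In TalaR-M against parental cells PROM1 and EPCAM were called higher and NES lower, and KLF4 passed as higher and CD44 and BMI1 as lower at under 2-fold. Over all genes tested, 13.3% were called and 23.6% passed in that comparison. In TalaR-DF against parental cells NES alone was called and EPCAM passed, where 9.73% of all genes were called and 18.6% passed. In TalaR-M against TalaR-DF cells PROM1 and KLF4 were called higher and NES lower and EPCAM passed, where 6.93% of all genes were called and 12% passed. The calls of PROM1 are not support, since it entered the test only through its TalaR-M libraries. The median difference of all genes tested was -0.09, 0.01 and -0.09 in these comparisons. In the same order, 690, 280 and 660 genes were called higher and 963, 934 and 204 lower. These shares and counts are the background for each related list below, and no list was tested as a set. The spread of replicate 2 enters the shared error: without it 60.2%, 62.9% and 48.8% of all genes passed, and 13.9%, 11.4% and 8.36% were called. The share of all genes whose groups do not overlap was not computed. Separation of groups is therefore given below as a description of the values and not as a trait of the members.

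**Figure D1:**
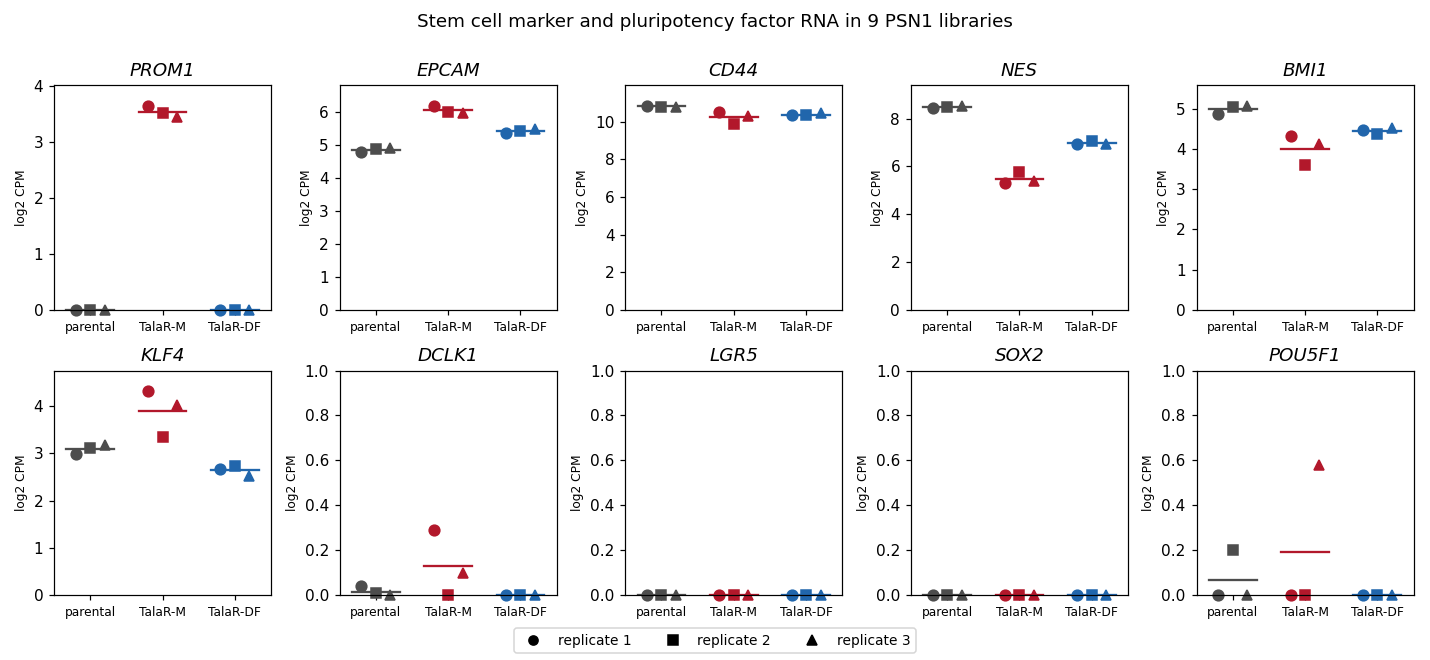
log2 CPM (y axis, starting at 0 in each panel, with its own upper limit) of the 10 members in parental, TalaR-M and TalaR-DF libraries (x axis). Each symbol is 1 library, its shape is the replicate and the line is the group mean. PROM1 is above 0 in the 3 TalaR-M libraries alone, NES is lower in TalaR-M and TalaR-DF than in parental libraries, and LGR5 and SOX2 are at 0 throughout.

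PROM1 encodes prominin-1 or CD133, a pentaspan glycoprotein of plasma membrane protrusions, and lies at 4:15963076-16084378 on the minus strand of GRCh38. It was listed at 0 in the 3 parental and the 3 TalaR-DF libraries. In TalaR-M it was at 3.65, 3.52 and 3.44 log2 CPM in replicates 1, 2 and 3, which came from 196, 86 and 151 reads. The groups did not overlap, and the TalaR-M values had an SD of 0.11 (n = 3). Taken against the level of 1 CPM, TalaR-M was at least 11.6-fold higher for PROM1 than parental and than TalaR-DF cells (log2 difference 3.54). PROM1 entered the test only through the TalaR-M libraries, since the other 6 sit at the floor with no spread, so its p is not given as support. The size of the difference depends on the floor: it was 6.87 with a pseudocount of 0.1 CPM and 1.29 with 8 CPM. In replicate 2 it deviated from the other TalaR-M libraries by -0.02, where the median of its length decile was -0.59, and its log2 difference was 3.54 without that library. FGFBP2 overlaps PROM1 on the same strand and was at 0 in all 9 libraries. No difference between TalaR-DF and parental cells was detectable at this depth, since both were at the floor.

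The promoter windows of PROM1 and NES are shown because these members had the largest changes in opposite directions. RefSeq windows of 300 bases, which cover the start of a transcript and mostly the bases before it, were at hand for 7 of the 10 members, 13 windows in all, on GRCh38.p14. Capitals mark the letters CAGGTG or CACCTG, the E-box to which SNAI family repressors such as SNAI2 bind. The first of 4 PROM1 windows, at chr4:16083974-16084273, and the NES window, at chr1:156677358-156677657, both on the minus strand, read 5′ to 3′ as follows.
PROM1: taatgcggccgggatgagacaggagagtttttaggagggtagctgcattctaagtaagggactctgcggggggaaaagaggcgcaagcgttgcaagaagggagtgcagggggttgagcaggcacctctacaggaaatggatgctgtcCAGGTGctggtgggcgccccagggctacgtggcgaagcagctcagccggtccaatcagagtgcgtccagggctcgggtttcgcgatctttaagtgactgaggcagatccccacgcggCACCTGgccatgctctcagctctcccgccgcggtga
NES: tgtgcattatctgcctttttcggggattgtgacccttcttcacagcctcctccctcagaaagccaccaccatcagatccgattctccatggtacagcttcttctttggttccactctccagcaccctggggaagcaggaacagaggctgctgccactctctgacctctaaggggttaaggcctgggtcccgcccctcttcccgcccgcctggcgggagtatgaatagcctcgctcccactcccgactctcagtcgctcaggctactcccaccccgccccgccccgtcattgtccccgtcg
The PROM1 window held 2 such E-boxes, and the other PROM1 windows held 0, 1 and 2. The windows of NES, KLF4, CD44, BMI1, SOX2 and DCLK1 held 0. Over all 35116 RefSeq windows of this length, 20.6% held at least 1. The GC box, GGGCGG or CCGCCC, counted with overlaps, occurred 4 times in the NES window, 4 times in that of KLF4, 6 and 5 times in those of BMI1, 2 times in that of CD44 and 1 time in that of SOX2. The 4 PROM1 windows held 0, 2, 1 and 0 and the 3 DCLK1 windows 0, 2 and 0, and 45.0% of all windows held at least 1. A match is a description of the letters and not a measurement of binding.

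EPCAM, a homotypic adhesion molecule of epithelial cells, lies at 2:47345158-47387601 on the plus strand. It was at 4.80, 4.89 and 4.91 log2 CPM in parental cells. In TalaR-M it was at 6.21, 6.01 and 5.97, and in TalaR-DF at 5.36, 5.44 and 5.50. The 3 groups were fully separated, with TalaR-M highest and TalaR-DF between. In TalaR-M EPCAM was 2.29-fold higher than in parental cells (log2 difference 1.20, SE 0.12, adjusted p = 0.000248), and this call held in each of the 9 fits that left out 1 library. In TalaR-DF it was 1.48-fold higher than in parental cells (log2 difference 0.57, SE 0.12, adjusted p = 0.0145) and 1.54-fold lower than in TalaR-M (adjusted p = 0.0149). These smaller differences passed less firmly: the first passed in 4 of 9 fits leaving out a library (not without any 1 parental library or TalaR-DF replicate 2 or 3), and the second in 6 of 9 (not without any 1 TalaR-DF library), with adjusted p up to 0.0688 and 0.0718. Without TalaR-M replicate 2 the adjusted p were 5.85e-05 and 9.18e-05. In that library EPCAM deviated by -0.08 from the other TalaR-M libraries, where the median of its length decile was 0.54.

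Genes that act with EPCAM at junctions or mark the same epithelial state were given as a list. Of these 13 genes, 7 were at 0 in all libraries, among them CDH1, GRHL2 and ESRP1, and 6 were tested. In TalaR-M against parental cells 0 were called higher and 3 lower, with a median log2 difference of -0.92. In TalaR-DF 0 were called higher and 5 lower, with a median of -1.66, in a comparison where 280 of all genes were called higher and 934 lower. Between TalaR-M and TalaR-DF cells 2 were called higher in TalaR-M and 0 lower, with a median of 0.78. ESRP2, an epithelial splicing regulator, had a mean of 4.60 ± 0.10 log2 CPM in parental, 2.69 ± 0.51 in TalaR-M and 0.86 ± 0.11 in TalaR-DF cells (SD, n = 3), and fell by 3.75 on the log2 scale in TalaR-DF (limma adjusted p = 2.2e-05). SPINT1, a membrane inhibitor of serine proteases, fell by 2.27 in TalaR-DF against parental cells (adjusted p = 0.00173) and differed by 0.17 between TalaR-M and parental cells (adjusted p = 0.714), or by -0.21 without replicate 2. CLDN7, a claudin that binds EPCAM, was at 1.40 ± 0.20 in parental cells and at 0 in the other 6 libraries. It entered the test only through the parental libraries, so its calls as lower are not support. The counts of lower genes and the medians of this list against parental cells include it.

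CD44, the receptor for hyaluronan, lies at 11:35138882-35232402 on the plus strand and was the most abundant member per length, at 332 CPM per kb of canonical transcript in parental, 223 in TalaR-M and 245 in TalaR-DF cells. It was at 10.86, 10.79 and 10.80 log2 CPM in parental, 10.50, 9.89 and 10.28 in TalaR-M and 10.37, 10.33 and 10.44 in TalaR-DF cells. All 6 TalaR-M and TalaR-DF libraries lay below the 3 parental ones, while TalaR-M and TalaR-DF overlapped. CD44 was 1.51-fold lower in TalaR-M than in parental cells (log2 difference -0.59, SE 0.18, adjusted p = 0.0439). The lowest value was that of replicate 2, and without it the log2 difference was -0.43 (adjusted p = 0.00167). That decrease passed in 2 of 9 fits leaving out a library, those without TalaR-M replicate 1 or 2, with adjusted p up to 0.143 in the others. In TalaR-DF the log2 difference from parental cells was -0.44 (adjusted p = 0.14), and the adjusted p was 0.000571 without TalaR-M replicate 2. TalaR-M and TalaR-DF differed by -0.16 (95% interval -0.56 to 0.25, adjusted p = 0.541), and by 0.01 without replicate 2. Counts per gene do not separate the standard from the variant splice forms of CD44.

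Of 16 genes for CD44 ligands, sheddases and cytoskeletal linkers, 14 were tested, and in TalaR-M against parental cells 1 was called higher and 2 lower, with a median log2 difference of -0.51 (-0.08 without replicate 2). SPP1, encoding the CD44 ligand osteopontin, was at 3.14 ± 0.16 log2 CPM in parental cells, at 0 in the 3 TalaR-M libraries and at 0.67 ± 0.48 in TalaR-DF cells (SD, n = 3). HAS2, a hyaluronan synthase, fell by 1.71 on the log2 scale in TalaR-M (adjusted p = 0.0141), and fell by 1.18 without replicate 2. NF2, which encodes the ERM-related protein merlin, was higher by 1.05 in TalaR-M (adjusted p = 0.000695) and by 0.95 without replicate 2.

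NES encodes nestin, an intermediate filament protein of neural and other progenitors, and lies at 1:156668763-156677407 on the minus strand. It was at 8.46, 8.50 and 8.55 log2 CPM in parental cells, at 5.30, 5.79 and 5.38 in TalaR-M and at 6.92, 7.08 and 6.95 in TalaR-DF. The 3 groups were fully separated, with TalaR-M lowest and TalaR-DF between. NES was 8.09-fold lower in TalaR-M than in parental cells (log2 difference -3.02, SE 0.15, adjusted p = 3.6e-06), the 188th of 12471 differences by size. In TalaR-DF it was 2.88-fold lower than in parental cells (log2 difference -1.52, SE 0.15, adjusted p = 0.000222) and 2.81-fold higher than in TalaR-M (adjusted p = 0.000508), where the log2 difference of TalaR-M from TalaR-DF was -1.49 and without replicate 2 -1.64. All of these calls held in each of the 9 fits that left out 1 library. Replicate 2 was 0.45 above the other TalaR-M libraries, where the median of genes of that length was -0.94, and without it the log2 difference from parental cells was -3.17. Per length the level went from 65.3 CPM per kb in parental to 8.16 in TalaR-M and 22.7 in TalaR-DF cells.

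Of 13 other intermediate filament and neural progenitor genes listed, 7 were at 0 in all libraries, and of 6 tested 2 were called higher and 0 lower in TalaR-M against parental cells (median log2 difference 0.11), and 0 passed in either direction in TalaR-DF. Without replicate 2 the TalaR-M median was 0.29, 3 passed as higher and 3 as lower in TalaR-M, and 1 as higher and 3 as lower in TalaR-DF, still with 0 called lower in either. Among these VIM, encoding the mesenchymal filament vimentin, differed by -0.70 in TalaR-M (adjusted p = 2.34e-05) and by -0.26 with replicate 2 (adjusted p = 0.594). SYNM, encoding the filament partner synemin, rose from 2.00 ± 0.14 log2 CPM in parental to 4.00 ± 0.33 in TalaR-M cells (SD, n = 3) and was at 1.85 ± 0.15 in TalaR-DF cells. MSI1, an RNA-binding protein of neural progenitors, rose by 1.63 in TalaR-M (limma adjusted p = 0.00484).

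KLF4, a zinc finger factor that acts in epithelial differentiation and in reprogramming, lies at 9:107484852-107490482 on the minus strand. It was at 2.98, 3.12 and 3.17 log2 CPM in parental, 4.32, 3.34 and 4.03 in TalaR-M and 2.68, 2.74 and 2.53 in TalaR-DF cells. The groups did not overlap, with TalaR-M highest and TalaR-DF lowest. Replicate 2 of TalaR-M lay only 0.17 above the highest parental library, from 76 reads, and was 0.83 below the mean of the other TalaR-M libraries, where the median of genes of that length was -0.33. KLF4 was 2.37-fold higher in TalaR-M than in TalaR-DF cells (log2 difference 1.25, SE 0.24, adjusted p = 0.0136). Without TalaR-M replicate 2 the log2 difference was 1.52. The call held in 7 of 9 fits leaving out a library, and without TalaR-DF replicate 1 or 3 the adjusted p was at most 0.0653. Against parental cells it was 1.75-fold higher in TalaR-M (log2 difference 0.80, SE 0.24, adjusted p = 0.0449), which passed in 1 of 9 such fits, the one without TalaR-M replicate 2 (1.08, adjusted p = 2.72e-05, called), and the others gave adjusted p from 0.0724 to 0.147. The log2 difference between TalaR-DF and parental cells was -0.44 (95% interval -1 to 0.11, adjusted p = 0.281), with an adjusted p of 0.00652 without TalaR-M replicate 2.

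BMI1 lies at 10:22321099-22331484 on the plus strand, within the readthrough gene COMMD3-BMI1, which was at 0 in all 9 libraries, so that reads of shared exons could have been counted for either and the level is uncertain. It was at 4.87, 5.04 and 5.08 log2 CPM in parental, 4.32, 3.59 and 4.12 in TalaR-M and 4.48, 4.37 and 4.51 in TalaR-DF cells. The groups did not overlap, and TalaR-M replicate 2 was the lowest library. BMI1 was 1.98-fold lower in TalaR-M than in parental cells (log2 difference -0.99, SE 0.20, adjusted p = 0.0085), with -0.78 without replicate 2, and it passed in each of the 9 fits leaving out a library. In TalaR-DF the log2 difference from parental cells was -0.54 (adjusted p = 0.104), and the adjusted p was 0.000261 without TalaR-M replicate 2. TalaR-M and TalaR-DF differed by -0.44 (95% interval -0.90 to 0.01, adjusted p = 0.176), and by -0.23 without replicate 2 (adjusted p = 0.0764).

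All 28 other Polycomb group genes listed were tested. In TalaR-M against parental cells 0 were called higher and 4 lower, with a median log2 difference of -0.17 (-0.04 without replicate 2). Over all genes tested, 13.3% were called in that comparison, 690 genes higher and 963 lower, so the count is not read as a trait of this list. Of these 4, PHC2, another subunit of Polycomb repressive complex 1, fell from 9.14 ± 0.05 to 7.63 ± 0.07 log2 CPM (SD, n = 3, limma adjusted p = 3.81e-05) and was at 8.23 ± 0.09 in TalaR-DF cells. The other decreases were in RNF2, which encodes the catalytic partner of BMI1 (-1.35, adjusted p = 0.0308), KDM2B (-1.03, adjusted p = 0.0232) and the cell cycle inhibitor CDKN2B (-1.20, adjusted p = 0.0181). PHC2 alone was called without replicate 2, where the log2 differences of the other 3 were -0.86, -0.70 and -0.83. In TalaR-DF against parental cells 0 were called in either direction by limma, while 1 passed as higher and 2 as lower at under 2-fold, and 9 as higher and 6 as lower without replicate 2.

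LGR5, the receptor for R-spondins that marks intestinal stem cells, and SOX2 were at 0 in all 9 libraries and were not tested. They lie at 12:71439798-71586310 and 3:181711925-181714436, both on the plus strand. DCLK1, a microtubule-associated kinase of tuft cells at 13:35768652-36131382 on the minus strand, was at 0.04, 0.01 and 0 log2 CPM in parental, 0.29, 0 and 0.10 in TalaR-M and 0 in all TalaR-DF libraries. These values came from at most 18 reads, the groups overlapped or met at 0, and DCLK1 was not called in any comparison. POU5F1, encoding OCT4, lies at 6:31164337-31180731 on the minus strand and was above 0 in 1 parental library (0.20) and 1 TalaR-M library (0.58), from 15 and 20 reads. It shares sequence with the paralog POU5F1B, listed at 0.83, 1.16 and 1.41 in parental cells and at 0 in the other 6 libraries, so that reads could be assigned to either.

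Beside these members at or near 0, other genes of the same pathways were detected. TSPAN8, which overlaps LGR5 on the opposite strand and encodes a tetraspanin used as a surface marker of pancreatic cancer stem cells, was at 0.45, 1.20 and 0.52 log2 CPM in parental, 4.70, 5.07 and 4.51 in TalaR-M and 2.66, 2.41 and 2.60 in TalaR-DF cells. The 3 groups did not overlap, and TSPAN8 was higher by 4.03 in TalaR-M (SE 0.24, adjusted p = 9.49e-06) and by 1.83 in TalaR-DF (adjusted p = 0.00117) than in parental cells. Of 17 genes of LGR and R-spondin signalling, 10 were at 0 in all libraries and 6 were tested. Against parental cells 1 was called higher and 1 lower in TalaR-M (median log2 difference 0.33), and 1 higher and 2 lower in TalaR-DF (median -0.67), or 3 lower there without replicate 2. RNF43, a ubiquitin ligase that removes Frizzled receptors, was higher by 2.86 in TalaR-M (adjusted p = 1.53e-05) and by 2.29 in TalaR-DF (adjusted p = 7.23e-05). LGR4, the paralog of LGR5, was at 7.71 ± 0.01 log2 CPM in parental, 5.12 ± 1.72 in TalaR-M and 6.42 ± 0.03 in TalaR-DF cells (SD, n = 3), and fell by 2.59 in TalaR-M (adjusted p = 0.0311) and fell by 1.60 without replicate 2. TNFRSF19, a receptor also known as TROY, was at 0.23 ± 0.28 in TalaR-DF against 3.31 ± 0.18 in parental cells, a log2 difference of -3.08 (SD, n = 3, limma adjusted p = 0.00249). Its TalaR-DF values lay near the floor, so the size of that difference depends on the floor and its p is not given as support.

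Of 20 other surface and efflux markers of stem cells, 15 were tested. In TalaR-M against parental cells 5 were called higher and 2 lower (median log2 difference 0.29), and in TalaR-DF 3 higher and 3 lower (median -0.31). Over all genes tested, 13.3% and 9.73% were called in these comparisons. CD24, a sialoglycoprotein stained together with CD44 and EPCAM, had the pattern of PROM1, with 2.63 ± 0.23 log2 CPM in TalaR-M (SD, n = 3) and 0 in the other 6 libraries. CXCR4, the chemokine receptor for CXCL12, was at 3.22 ± 0.14 in parental, 0.17 ± 0.29 in TalaR-M and 0.14 ± 0.24 in TalaR-DF cells, and differed from parental cells by -3.05 and -3.08. CXCR4 entered the test through the parental libraries and was near the floor in the other groups, so its p is not given as support. CD24 entered it only through the TalaR-M libraries. The counts above include the calls of CD24 and CXCR4, which are not support. ABCG2, the efflux transporter behind the side population assay, was at 2.34 ± 0.17 in parental, 3.97 ± 0.65 in TalaR-M and 4.60 ± 0.07 in TalaR-DF cells, and was higher by 1.64 and 2.27 (limma adjusted p = 0.00513 and 0.00115).

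Of 26 other genes of the pluripotency network, 16 were at 0 in all libraries, NANOG, LIN28A, PRDM14 and ZFP42 among them, and 10 were tested. In TalaR-M against parental cells 1 was called higher and 3 lower, with a median log2 difference of -0.70, and in TalaR-DF 1 higher and 2 lower, with a median of -0.62. Without replicate 2 these counts were 2 and 3 in TalaR-M and 1 and 3 in TalaR-DF. MYC was at 9.90 ± 0.08 log2 CPM in parental, 9.29 ± 0.46 in TalaR-M and 10.99 ± 0.06 in TalaR-DF cells (SD, n = 3), higher by 1.09 in TalaR-DF than in parental cells (adjusted p = 0.0107) and TalaR-M differed from TalaR-DF cells by -1.70 (adjusted p = 0.00212). TBX3, a T-box repressor, fell by 1.89 in TalaR-M (adjusted p = 0.00148) and fell by 1.59 in TalaR-DF (adjusted p = 0.00421). TET1, a methylcytosine dioxygenase, fell by 1.51 in TalaR-M (adjusted p = 0.0234) and fell by 1.02 without replicate 2. MYCN was at 1.44 ± 0.52 in TalaR-M (SD, n = 3) and at 0 in the other 6 libraries. It entered the test only through the TalaR-M libraries, so a call of MYCN is not support.

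**Figure D2:**
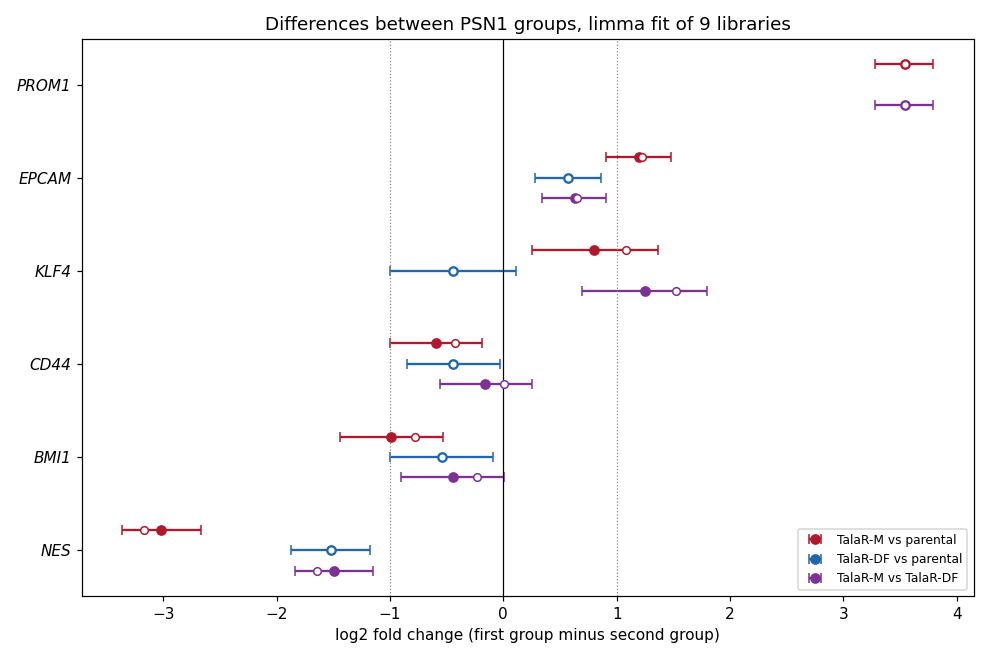
log2 fold changes (x axis, first group minus second group) of the 6 members detected above 1 CPM in at least 1 whole group (y axis), with 95% intervals from the limma fit of 9 libraries. Filled points are that fit, open points the fit without TalaR-M replicate 2, and dotted lines mark 2-fold. PROM1 differences are counted from the floor of 1 CPM, so their intervals are not given as support. NES lies beyond 2-fold in all 3 comparisons.

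The level in TalaR-DF cells lay between those of the other groups in 4 of the 5 members above 0 in all libraries (80%), against 39.3% of all genes tested and 40.4% of 11034 genes above 0 in all libraries. Without TalaR-M replicate 2 it was 3 of the 5 members (60%), against 37.1% and 37.8%. The part of the TalaR-M difference that was left in TalaR-DF was 47.6% for EPCAM, 50.6% for NES, 55% for BMI1 and 73.9% for CD44. Without replicate 2 it was 46.5%, 48.2%, 69.9% and 103%, so that CD44 then no longer lay between. KLF4 was the exception, with the TalaR-DF mean on the far side of the parental level. That log2 difference of -0.44 from parental cells did not pass (limma adjusted p = 0.281), so this place is uncertain. It passed without TalaR-M replicate 2 (limma adjusted p = 0.00652). TalaR-M and TalaR-DF were compared with the same parental libraries, so these shares are not independent. For BMI1 and CD44 TalaR-M and TalaR-DF did not differ past the threshold (limma adjusted p = 0.176 and 0.541), so their place between the groups is uncertain. The background of all genes holds many that did not pass in any comparison, so it is not matched to these members.

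**Figure D3:**
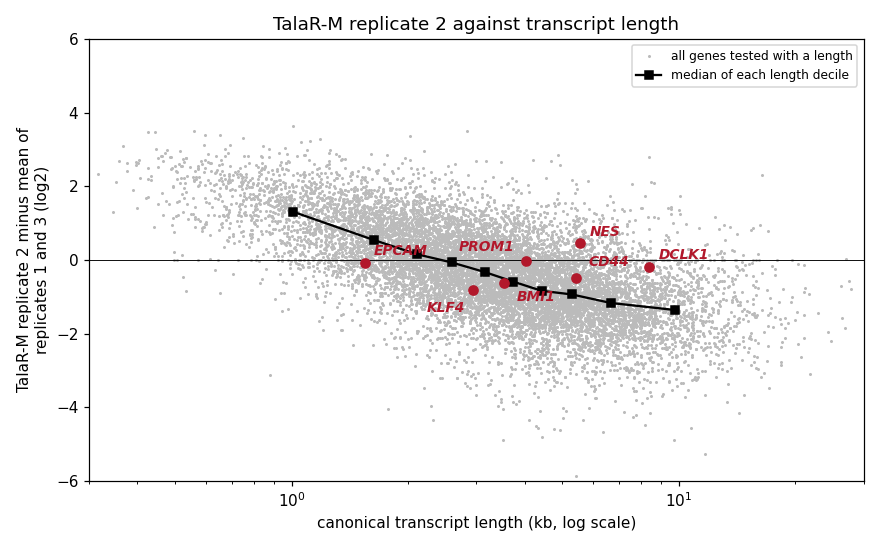
Difference of TalaR-M replicate 2 from the mean of replicates 1 and 3 (y axis, log2) against canonical transcript length (x axis, kb, log scale) for 11710 genes tested. Black squares are the medians of length deciles, falling from 1.31 to -1.36, and red points are the 7 tested members. NES, DCLK1, PROM1 and CD44 lie above and EPCAM, KLF4 and BMI1 below the median of their decile.

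The genes most like the called members across the 9 libraries were found by the root-mean-square difference of centred log2 values. For PROM1 these were ALPP (0.20), ANXA8L1 (0.21) and ANXA8 (0.21), the last pair being near-identical copies whose reads could be split between them. For EPCAM they were ATL3 (0.07), BACE2 (0.10) and KPNA2 (0.11), and for NES they were RCOR2 (0.15), NDRG1 (0.21) and IL4R (0.25). RCOR2 went from a mean of 5.16 log2 CPM in parental to 2.07 in TalaR-M and 3.64 in TalaR-DF cells, and ALPP was at a mean of 3.37 in TalaR-M and at 0 in the other groups. For KLF4 they were CPQ (0.14), RAB11FIP4 (0.14) and SLC12A7 (0.15).

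**Figure D4:**
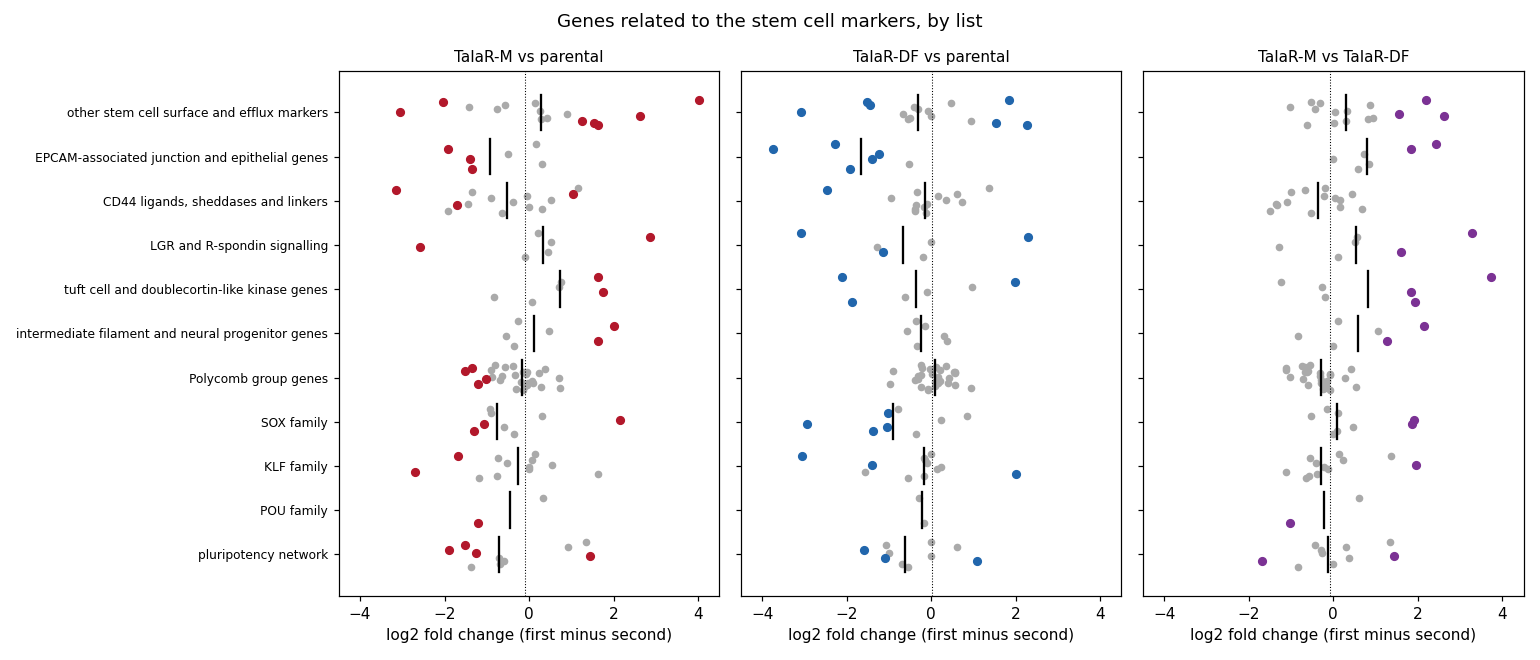
log2 fold changes (x axis, first group minus second) of the tested genes of 11 related lists (y axis) in the 3 comparisons. Coloured points were called, grey points were not, black bars are list medians and dotted lines the median of all genes tested. The junction and epithelial list has its median at -0.92 in TalaR-M and -1.66 in TalaR-DF against parental cells. Coloured points include genes that entered the test through a single group, such as CLDN7 and CD24, whose calls are not support.

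Markers of other cell types moved with these groups. In the sums below a gene listed at 0 adds 0 CPM, although it may stand for up to 1 CPM. The sums are therefore lower bounds, which matters most for the low ones, and the TalaR-M ranges include replicate 2. The summed level of 9 fibroblast markers was 1790 to 1870 CPM in parental, 1230 to 3410 in TalaR-M and 912 to 1030 in TalaR-DF libraries, with FAP and ACTA2 at 0 in all 9. Of the 7 tested fibroblast markers 2 were called higher and 4 lower in TalaR-M against parental cells (3 and 4 without replicate 2), and 0 higher and 4 lower in TalaR-DF. The 6 leukocyte markers summed to 11.1 to 14.7 CPM in parental, 4.14 to 7.11 in TalaR-M and 1.18 to 2.55 in TalaR-DF libraries, with CD3E, CD68, CD79A and LYZ at 0 in all 9. The 4 endothelial markers summed to 28.8 to 30.9, 5.91 to 9.06 and 2.92 to 3.24 CPM, with VWF at 0 in all 9, and both tested members were called lower in TalaR-M and in TalaR-DF against parental cells. The summed ductal epithelium markers were 1090 to 1150 CPM in parental, 1680 to 5790 in TalaR-M and 930 to 1070 in TalaR-DF libraries. Of 7 tested 1 was called higher in TalaR-M and 2 lower in TalaR-DF against parental cells. Their median log2 difference in TalaR-M against parental cells was 0.52, and 0.05 without replicate 2, where 3 passed as higher and 2 as lower. The 4 neuroendocrine markers, with CHGA at 0 in all 9, summed to 19 to 23, 39.1 to 58.4 and 21.6 to 22.8 CPM. Fewer cells of a state and less RNA per cell cannot be told apart in such bulk libraries, and the part of these markers in the results was not tested.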

How the data were processed

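RNAseq libraries of PSN1 cells (parental, TalaR-M, TalaR-DF), 3 per group, were grouped by sample title. Stranded poly(A) libraries were made, per the labels. The authors deposited log2 values, which by their equal steps are log2 CPM made with a prior count of 1 and floored at 0. The submitters' processing notes name hg38, and the aligner, counter and annotation are not given in the sources used here. Under 50 CPM, 100% of values gave whole reads (tolerance 0.05), which served to show depth and the reads behind members' values and entered no test.

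The values were fitted with limma 3.58.1 in R 4.3.3, with 1 coefficient per group and a mean-variance trend. A gene was tested if it exceeded 1 CPM in 3 libraries or more (12471 genes), and p-values were adjusted over all of them. Fold changes are on the deposited log2 scale, and those against groups at 0 are lower bounds. An exact permutation test of 3 against 3 libraries cannot give a two-sided p under 0.1 and was not used. The fit was tested on simulated data. The simulated libraries had no deviation with transcript length like that of TalaR-M replicate 2, so they do not show how the fit handles it.

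Members and lists were chosen with earlier results of these data known. From each list up to 4 genes could be named, the called genes with the largest absolute change in any comparison. Likeness was the root-mean-square difference of centred values over 9 libraries, with 3 genes per called member. VIM was named after its values were seen. The share of all genes with TalaR-DF between the other groups was also computed without TalaR-M replicate 2, a choice made after seeing the data. Positions and lengths came from GENCODE 44 on GRCh38, where 93.9% of tested genes had a length by symbol. Alternatives were pseudocounts of 0.1 and 8 CPM, other filters, fold thresholds, scalings and fits, library weights, a replicate block and leaving out each library. Other cell lines and short treatments were not analysed here.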

Additional observations from a re-analysis of the deposited data

How the results depend on the processing

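Of 306 alternative values of single members, 259 kept their direction and side of the threshold, 35 no longer passed, 11 newly passed and 1 reversed. The 259 include 18 PROM1 values against parental and 18 against TalaR-DF cells, whose direction was fixed because those groups sit at the floor. All those of NES stayed past the threshold. PROM1 ranged from 1.29 with a pseudocount of 8 CPM to 6.87 with 0.1 CPM. The reversed value was CD44 in TalaR-M against TalaR-DF cells, which ranged from -0.294 to 0.0113 when 1 library was left out and was positive without TalaR-M replicate 2. Genes called numbered 1653 between TalaR-M and parental cells, 1214 between TalaR-DF and parental cells and 864 between TalaR-M and TalaR-DF cells. In this order, with a pseudocount of 8 CPM they were 711, 426 and 272, at 1.5-fold 2637, 2042 and 1369, and with no fold threshold 2938, 2315 and 1502. Fitting only 2 groups gave 484 in the last comparison. Members called went from 3 to 6 in TalaR-M against parental cells at 1.5-fold or no fold threshold, and from 1 to 2 in TalaR-DF against parental cells with no fold threshold. Leaving out 1 library at a time gave 3 to 4, 1 and 2 to 3 members called. The counts in comparisons with TalaR-M include PROM1, whose calls are not support. Rescaling by the median ratio moved the median difference of all genes in TalaR-M against TalaR-DF cells from -0.09 to 0.03, in TalaR-M against parental cells from -0.09 to 0.01, and turned no member's direction. After rescaling CD44 and BMI1 passed in TalaR-DF against parental cells (adjusted p = 0.0293 and 0.018).

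The labels do not say whether replicate numbers pair the samples. Deviations of same-numbered libraries from their group means correlated from -0.31 to 0.16, and those of differently numbered libraries from -0.4 to 0.37. With so few libraries and TalaR-M replicate 2 standing apart, these correlations cannot settle whether samples were paired. With the replicate block, 1546, 1132 and 750 genes and 3, 1 and 3 members were called. KLF4 and CD44 in TalaR-M against parental cells (adjusted p = 0.081 and 0.0691) and EPCAM in the other comparisons (0.0533 against parental cells and 0.0568 between TalaR-M and TalaR-DF) no longer passed. Depth limits LGR5, SOX2, DCLK1 and POU5F1, whose RNA below 6 to 14 reads is listed as 0. The causes of these changes were not tested.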

Other observations

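Genes of the same families as the undetected or low members were expressed. Of 18 SOX family genes besides SOX2, 9 were at 0 in all libraries and 8 were tested. In TalaR-DF against parental cells 0 were called higher and 4 lower, with a median log2 difference of -0.90. Of all genes tested 9.73% were called in that comparison, 280 genes higher and 934 lower. SOX4, a factor of progenitor and mesenchymal programmes, was at 5.63 ± 0.04 log2 CPM in parental, 4.56 ± 0.13 in TalaR-M and 2.70 ± 0.20 in TalaR-DF cells (SD, n = 3), and fell by 2.93 in TalaR-DF against parental cells (limma adjusted p = 5.75e-06). SOX13 fell by 1.30 in TalaR-M and fell by 1.38 in TalaR-DF (limma adjusted p = 0.00447 and 0.00398). SOX6 was higher by 2.15 in TalaR-M (limma adjusted p = 0.0187), or 2.81 once TalaR-M replicate 2 was left out.

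Of 16 other KLF genes 12 were tested, with 0 called higher and 2 lower in TalaR-M and 1 higher and 2 lower in TalaR-DF against parental cells. KLF7 was at 4.89 ± 0.08, 3.22 ± 1.12 and 1.85 ± 0.07 log2 CPM in parental, TalaR-M and TalaR-DF cells (SD, n = 3) and fell by 3.05 in TalaR-DF (limma adjusted p = 0.00275). KLF13 fell by 2.69 in TalaR-M (limma adjusted p = 0.0103) and fell by 1.90 without replicate 2. Of 13 other POU genes 2 were tested. POU2F1, the ubiquitous OCT1 factor, fell by 1.20 in TalaR-M (limma adjusted p = 0.0124) and differed by -0.86 without replicate 2, where it was no longer called.

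Among 18 tuft cell and doublecortin-like kinase genes 10 were at 0 in all libraries, and 6 were tested, of which 2 were called higher in TalaR-M against parental cells, or 4 without replicate 2. DCLK2, the paralog of DCLK1, rose by 1.74 in TalaR-M against parental cells (limma adjusted p = 0.000786) and was at 1.12 ± 0.08 log2 CPM in TalaR-DF against 1.22 ± 0.21 in parental cells (SD, n = 3). PTGS1, encoding cyclooxygenase 1, was at 2.36 ± 0.17 in parental, 3.98 ± 0.32 in TalaR-M and 0.24 ± 0.19 in TalaR-DF cells. It differed from parental cells by 1.62 in TalaR-M and -2.12 in TalaR-DF (limma adjusted p = 0.000714 and 0.000182). Its TalaR-DF values lay near the floor, so the size of the second difference depends on the floor and its p is not given as support.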
